A study of Mus musculus with 11 samples.

Results

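The 8 genes described here belong to simple epithelium and were followed through the ontogeny of mouse hematopoietic stem cells (HSCs), namely the keratin genes *Krt7*, *Krt8*, *Krt18* and *Krt19* and the junction genes *Epcam*, *Cdh1*, *Cldn6* and *Cldn7*. They were chosen by symbol, as the rows of a gene expression table whose Ensembl IDs carry these names, in a set drawn up with earlier results of these data known. All 8 were among the 37820 gene IDs of the table, and all 8 passed the filter on low values that left 14708 genes for testing. Keratins build the intermediate filaments of epithelial cells, and each filament pairs a type I with a type II keratin. In simple, single-layered epithelia *Krt8* is the main type II partner and *Krt18* the main type I partner, with *Krt7* (type II) and *Krt19* (type I) added in ducts and other linings. Neighboring epithelial cells are held together by E-cadherin (*Cdh1*) in adherens junctions and by EpCAM (*Epcam*), and claudins such as *Cldn6* and *Cldn7* seal the space between cells in tight junctions. Endothelium builds its junctions largely from other members of these families, such as VE-cadherin and claudin 5, and its main intermediate filament protein is vimentin.

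The data are RNA-seq of 11 libraries from 5 sorted populations, namely 2 of Endo, 2 of HE, 3 of pre-HSCs, 2 of FL HSCs and 2 of BM HSCs. Endo and HE came from the major arteries (aorta, gonad and mesonephros region by the sample labels, with the vitelline and umbilical arteries by the paper) of E10.5 embryos with GFP in one *Runx1* allele (*Runx1* tm4Dow). Both were sorted as CD31+ CD45- CD41- cells, Endo as Runx1:GFP- Kit- and hemogenic endothelium (HE), the endothelium that gives rise to blood, as Runx1:GFP+ with low or no Kit. Pre-HSCs, which form clusters in the arteries and mature into HSCs, were sorted as CD31+ CD144+ ESAM+ Kit+ Ly6a:GFP+ cells from embryos with a *Ly6a*-GFP transgene, at E10.5 by the labels and a day later by the paper. FL HSCs (Lin- Sca1+ Kit+ CD150+ CD48-) came from E14.5 fetal liver of B6C3F1 by B6129SF1 crosses, and BM HSCs (Lin- Sca1+ Kit+ CD150+) from bone marrow of B6C3F1 and B6129SF1 mice 6 to 8 weeks old. The BM sort further excluded CD48 and CD135 in one place of the paper and CD34 in another. The labels give B6129SF1 as the strain of every library, whereas in the paper the strain and the reporter change with the population, so that their part in a difference cannot be told apart from that of the stage. For Endo and HE, liver and gut were cut away before the sort. The libraries are called biological replicates, and nothing states whether equal replicate numbers share a litter or a sort, so p-values measure only the spread between these libraries.

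Values are FPKM, the fragments of a gene scaled by the length of its transcript and by how many reads of that library were mapped, which can be set side by side between genes because they are per length. How many reads stand behind a value is unknown, so counting intervals are not given. FPKM summed to between 569851 and 789161 per library. The endothelial surface gene *Pecam1* was at 178 to 283 FPKM in the 7 libraries of Endo, HE and pre-HSCs and at 15.4 to 21.2 in the 4 HSC libraries, and the leukocyte gene *Ptprc* was at 0.0969 or less in Endo and HE and at 7.97 or more elsewhere. A value of exactly 0 may be a failed estimate (*Prpf8*, a splicing gene used by all cells, has it in pre-HSC replicate 3 only), and such genes are given as listed at 0. *Krt8* and *Krt18* have processed copies elsewhere in mammalian genomes, and the authors kept only reads that mapped to 1 place, so that reads shared with a copy are missing from their values. In bulk RNA of sorted cells, fewer cells that express a gene and less RNA per cell cannot be told apart.

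Since several of the genes moved together through the populations, the 250 bases before their RefSeq start sites were read (build GRCm38.p6, while the expression data use mm9). Entries were found for 6 of the 8 genes, not for *Krt19* and *Cdh1*. The stretch was searched on both strands for the E-box CACCTG, which reads CAGGTG on the other strand and is known as a binding sequence of the Snail and Zeb repressors in the *CDH1* promoter of human cells. The motif was chosen with the expression values known. The upstream stretches of *Krt8* (chr15:102004343-102004592, minus strand), *Krt18* (chr15:102027966-102028215, plus strand), *Epcam* (chr17:87635729-87635978, plus strand) and *Cldn6* (chr17:23679115-23679364, plus strand), and of the first (chr11:69964529-69964778, plus strand) and second (chr11:69965171-69965420, plus strand) listed start of *Cldn7*, are shown because these are the genes with an entry that were called as lower in pre-HSCs than in HE, with the E-box in capitals.
Krt8: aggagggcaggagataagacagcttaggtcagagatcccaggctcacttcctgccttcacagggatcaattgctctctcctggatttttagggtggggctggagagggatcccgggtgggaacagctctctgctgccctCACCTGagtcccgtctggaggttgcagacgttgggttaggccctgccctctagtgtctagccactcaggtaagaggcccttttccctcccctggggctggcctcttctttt
Krt18: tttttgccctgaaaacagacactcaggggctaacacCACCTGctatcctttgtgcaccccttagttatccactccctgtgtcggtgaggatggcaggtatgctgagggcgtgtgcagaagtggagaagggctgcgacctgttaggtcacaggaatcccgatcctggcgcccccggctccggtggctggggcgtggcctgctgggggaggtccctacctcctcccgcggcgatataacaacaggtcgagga
Epcam: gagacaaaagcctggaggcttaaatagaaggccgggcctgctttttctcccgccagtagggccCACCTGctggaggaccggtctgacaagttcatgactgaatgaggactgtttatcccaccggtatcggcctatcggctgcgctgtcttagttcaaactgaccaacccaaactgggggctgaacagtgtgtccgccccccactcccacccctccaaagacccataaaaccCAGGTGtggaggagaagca
Cldn6: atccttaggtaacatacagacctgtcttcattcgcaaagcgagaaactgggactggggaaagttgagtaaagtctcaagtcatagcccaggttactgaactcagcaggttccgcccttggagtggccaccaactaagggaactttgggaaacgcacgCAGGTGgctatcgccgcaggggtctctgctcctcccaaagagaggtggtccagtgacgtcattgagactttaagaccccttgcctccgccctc
Cldn7, first start: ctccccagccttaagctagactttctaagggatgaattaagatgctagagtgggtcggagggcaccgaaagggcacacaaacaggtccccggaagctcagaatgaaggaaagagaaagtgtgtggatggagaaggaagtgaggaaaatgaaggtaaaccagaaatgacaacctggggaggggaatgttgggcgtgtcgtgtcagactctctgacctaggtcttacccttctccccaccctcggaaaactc
Cldn7, second start: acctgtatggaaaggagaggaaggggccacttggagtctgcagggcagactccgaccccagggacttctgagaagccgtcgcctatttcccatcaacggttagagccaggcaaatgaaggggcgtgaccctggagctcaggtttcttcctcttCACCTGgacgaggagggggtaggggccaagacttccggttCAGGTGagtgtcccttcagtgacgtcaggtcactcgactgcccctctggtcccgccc
All 6 genes held at least 1 match, at 6 of their 7 start sites, and so did 5657 of 32851 promoters (17.2%) over the same 250 bases. The matches began 111 bases before the start of *Krt8*, 214 before *Krt18*, 187 and 19 before *Epcam*, 93 before *Cldn6*, 44 before *Krt7*, and 97 and 57 before the second listed start of *Cldn7*. The first listed start of *Cldn7* held none. A match is a description of letters and not of a bound site.

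*Krt8* was the most abundant of the 8 genes in both endothelial populations. It lies on chromosome 15 (chr15:101827142-101834773, minus strand, mm9), and its start is 23.9 kb from that of *Krt18* (chr15:101858647-101862457, plus strand), which is transcribed away from it. *Krt8* was at 23.5 and 82.2 FPKM in Endo libraries, 233 and 112 in HE libraries, 16.1, 8.03 and 10.2 in pre-HSC libraries, 0.466 and 0.149 in FL libraries and 1.27 and 1.63 in BM libraries. Both HE libraries stood above every other library, and its mean in HE exceeded those of 96.1% of the genes tested. The partner keratin *Krt18* was at 13.9 and 50.3 FPKM in Endo libraries, 152 and 70.5 in HE libraries, 16.7, 14.3 and 14.8 in pre-HSC libraries, 15.3 and 13.8 in FL libraries and 44.0 and 48.9 in BM libraries. Unlike *Krt8*, *Krt18* thus stayed at 13.8 FPKM or more in every library, and its BM mean exceeded those of 84.4% of genes.

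The other pair of keratins differed from each other in the HSCs. *Krt19* (chr11:100002124-100009979, minus strand) was at 5.04 and 17.6 FPKM in Endo libraries, 63.6 and 28.4 in HE libraries and 8.24, 3.55 and 6.71 in pre-HSC libraries, and it was listed at 0 in all 4 libraries of FL and BM HSCs. *Krt7* (chr15:101241474-101260744, plus strand) was at 0.918 and 4.07 FPKM in Endo libraries, 9.06 and 7.09 in HE libraries, 4.44, 1.22 and 1.64 in pre-HSC libraries, 2.79 and 2.39 in FL libraries and 13.0 and 4.22 in BM libraries. *Krt7* was thereby the only one of the 8 with its highest mean FPKM in BM HSCs, at 8.60 ± 6.20 FPKM (SD, n = 2), against 8.07 ± 1.39 in HE (SD, n = 2), a difference well within the spread of the BM libraries and in the other direction for the means of the log2 values.

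The junction genes were lower than *Krt8* in every Endo, HE and pre-HSC library but largely shared its order of populations. *Epcam* (chr17:88035319-88050446, plus strand) was at 4.38 and 8.39 FPKM in Endo libraries, 11.6 and 8.72 in HE libraries, 5.09, 2.48 and 3.51 in pre-HSC libraries, 0.662 and 0.378 in FL libraries and 0.889 and 1.42 in BM libraries. *Cdh1* (chr8:109127251-109194146, plus strand) was at 1.16 and 4.35 FPKM in Endo libraries, 10.3 and 6.25 in HE libraries, 2.48, 0.941 and 1.86 in pre-HSC libraries, 0.0158 and 0.00715 in FL libraries and 0 in both BM libraries. The lowest HE library was above every library of another population for both genes, and the Endo and pre-HSC libraries overlapped. *Cldn6* (chr17:23816332-23819413, plus strand) was at 2.31 and 11.9 FPKM in Endo libraries, 37.5 and 20.7 in HE libraries and 7.17, 1.24 and 4.09 in pre-HSC libraries, and it was listed at 0 in the 4 HSC libraries. *Cldn7* (chr11:69778281-69781387, plus strand) was at 8.76 and 10.2 FPKM in Endo libraries, 18.7 and 8.61 in HE libraries, 4.38, 2.32 and 3.74 in pre-HSC libraries, 0.403 and 4.75 in FL libraries and 1.98 and 0.786 in BM libraries. For *Cldn7* one HE library lay below both Endo libraries, and one FL library above all pre-HSC libraries. Over all 8 genes 7 had their highest mean FPKM in HE, where 15.0% of the genes tested had theirs.

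**Figure D1:**
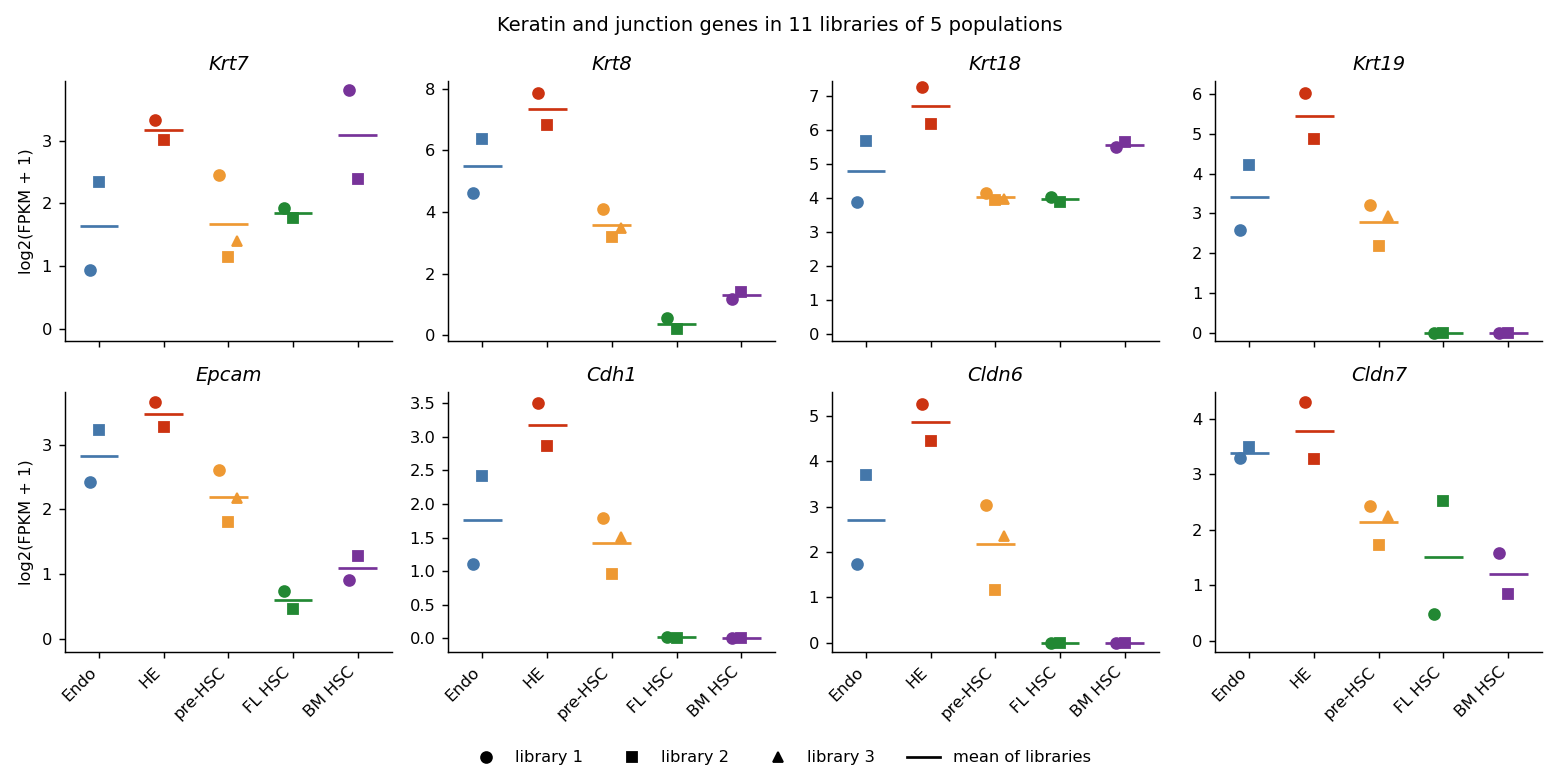
Level of each of the 8 genes as log2(FPKM + 1), one panel per gene with its own axis, in the libraries of the 5 populations (symbols, library 1, 2 or 3) with the mean of the log2 values (bars). The HE bar is the highest for all 8 genes, closely followed by the BM HSC bar for *Krt7*, *Krt19* and *Cldn6* are at 0 in FL and BM HSCs, and only *Krt7* and *Krt18* have a BM HSC mean above their Endo mean.

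The libraries of a population differed from each other in these genes, and in the same direction. All 8 genes were higher in Endo replicate 2 than in Endo replicate 1, as were 59.2% of the genes tested. The ratio of both libraries ran from 1.17 for *Cldn7* to 5.17 for *Cldn6*, with a median of 3.56 over the 8 genes and of 1.08 over all genes. Likewise all 8 were higher in HE replicate 1 than in HE replicate 2 (43.2% of genes), by 1.28 times for *Krt7* to 2.24 times for *Krt19*, with a median of 1.94 against 0.963 over all genes. In pre-HSCs all 8 had the order replicate 1, 3, 2 from high to low, an order that 12.2% of genes had. All 3 orders held at once for the 8 genes and for 468 of the 14708 genes (3.18%). Summed, the 8 genes reached 59.9 and 189 FPKM in Endo libraries, 536 and 262 in HE libraries, 64.6, 34.1 and 46.6 in pre-HSC libraries, 19.6 and 21.5 in FL libraries and 61.1 and 57.0 in BM libraries.

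The spread around the population means was correspondingly large. On the log2 scale the residual SD over all 11 libraries (6 degrees of freedom) was 0.37 for *Epcam*, 0.49 for *Cdh1*, 0.61 for *Krt18*, 0.65 for *Krt19*, 0.66 for *Krt8*, 0.71 for *Krt7*, 0.73 for *Cldn7* and 0.82 for *Cldn6*. The median of the 8, at 0.66, exceeded the SD of 95.6% of the genes tested, whose own median was 0.23. The lists of other genes described further on had medians from 0.21, for 8 endothelial genes (*Pecam1*, *Cdh5*, *Esam*, *Cldn5*, *Kdr*, *Tek*, *Tie1* and *Emcn*), to 0.70, for the 1 tested trophoblast gene. Among them 7 hepatocyte entries, in which *Trf* stands under both of its gene IDs, had 0.66. Further medians were 0.50 for 3 nephric genes, 0.47 for the erythroid genes and 0.42 for the mesothelium genes. The lists of other epithelial genes were lower. Their medians were 0.31 for the desmosome, 0.24 for the other tight junction and 0.30 for the adherens junction and polarity genes. They were 0.32 for the surface and traffic genes, 0.26 for the regulators and 0.31 for the further keratins. A wide spread was thus shared with some lists of other cell types, but not with those of other epithelial genes. The FL and BM libraries contributed little except for *Cldn7*, which was 11.8 times higher in FL replicate 2 than in FL replicate 1, and *Krt7*, which was 3.08 times higher in BM replicate 1 than in BM replicate 2.

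**Figure D2:**
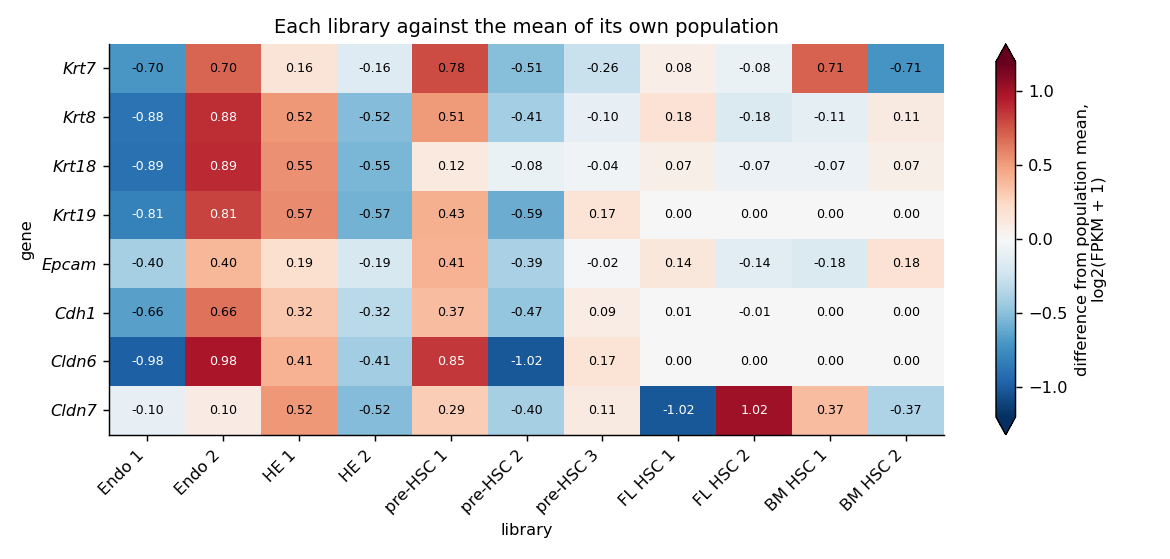
Difference of each library (columns) from the mean of its own population for each gene (rows), in log2(FPKM + 1), with red above and blue below the mean. Endo replicate 2, HE replicate 1 and pre-HSC replicate 1 are above their population mean in all 8 genes.

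Differences between neighboring populations were tested with limma on log2(FPKM + 1) over all 11 libraries, with p-values adjusted over the 14708 genes. Calls needed an adjusted p below 0.01 in limma's F test across populations and, for the pair compared, an adjusted p below 0.05 and a change of 2-fold or more. The pseudocount of 1 makes the log2 fold changes of low genes smaller than the ratio of their FPKM.

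Between HE and Endo all 8 genes had a higher mean in HE, and none passed the test. The ratio of the mean FPKM, HE over Endo, was 3.26 for *Krt8*, 3.47 for *Krt18*, 4.06 for *Krt19*, 4.09 for *Cldn6*, 3.23 for *Krt7*, 3.004 for *Cdh1*, 1.60 for *Epcam* and 1.44 for *Cldn7*. The HE libraries lay above both Endo libraries for 7 genes and overlapped them for *Cldn7*. How many of all genes were separated in this way was not counted, so the number cannot be judged. In limma's fit the log2 fold change was 1.92 for *Krt18* (SE 0.49, adjusted p = 0.264), the lowest adjusted p of the 8, 1.85 for *Krt8* (SE 0.54, adjusted p = 0.315) and 0.39 for *Cldn7* (SE 0.59, adjusted p = 0.983). By limma's unadjusted p below 0.05 together with a change of 2-fold or more, 6 of the 8 passed, all but *Epcam* and *Cldn7*. This was the contrast with the fewest calls, 19 genes (0.129% of those tested, 0.0544% as higher and 0.0748% as lower), whereas the unadjusted rule took 2.28%. The 8 higher and 11 lower calls became 5 and 15 after quantile normalization and 10 and 0 with a pseudocount of 0.1. The median log2 fold change was 1.69 over the 8 genes and 0.03 over all genes. Without Endo replicate 2, the library with the higher levels, *Krt18* alone was called (log2 fold change 2.81, adjusted p = 0.0473 in limma).

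Between pre-HSCs and HE 7 of the 8 genes were called as lower, and for all 8 every pre-HSC library was below both HE libraries. The share of all genes separated in this way was not counted here either. In this contrast 11.3% of the genes tested were called, 4.34% as lower and 6.98% as higher. That balance depended on scaling, for the 1026 higher and 639 lower calls became 802 and 832 after quantile normalization, which moved the median of all genes by -0.11 (log2), and 1312 and 477 with FPKM scaled to equal totals, which moved it by 0.13. All 8 genes stayed lower in pre-HSCs under both scalings, with median log2 fold changes of -2.38 and -2.08. *Krt8* fell by 3.76 on the log2 scale (SE 0.49, adjusted p = 0.000919 in limma), to 0.0664 of its mean FPKM in HE. *Krt18* fell by 2.69 (SE 0.45, adjusted p = 0.00289 in limma), *Cldn6* fell by 2.67 (SE 0.61, adjusted p = 0.0118) and *Krt19* fell by 2.66 (SE 0.49, adjusted p = 0.00458). The falls of the adhesion genes were smaller on this scale, with log2 fold changes in limma of -1.76 for *Cdh1* (SE 0.39, adjusted p = 0.0101) and -1.28 for *Epcam* (SE 0.31, adjusted p = 0.0146). *Cldn7* was just inside the threshold (log2 fold change -1.65, SE 0.54, adjusted p = 0.0488 in limma) and *Krt7* was not called (-1.51, SE 0.53, adjusted p = 0.0613, and 0.0523 in the F test). The median was -2.21 over the 8 genes and 0.09 over all genes. These calls rested in large part on HE replicate 1, for without it only that of *Krt8* was left, while each of the 8 fold changes stayed negative. The *Cldn7* call ended without 9 of the 11 libraries, the exceptions being the FL libraries (adjusted p = 0.0523 to 0.343 in limma for these 9).

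**Figure D3:**
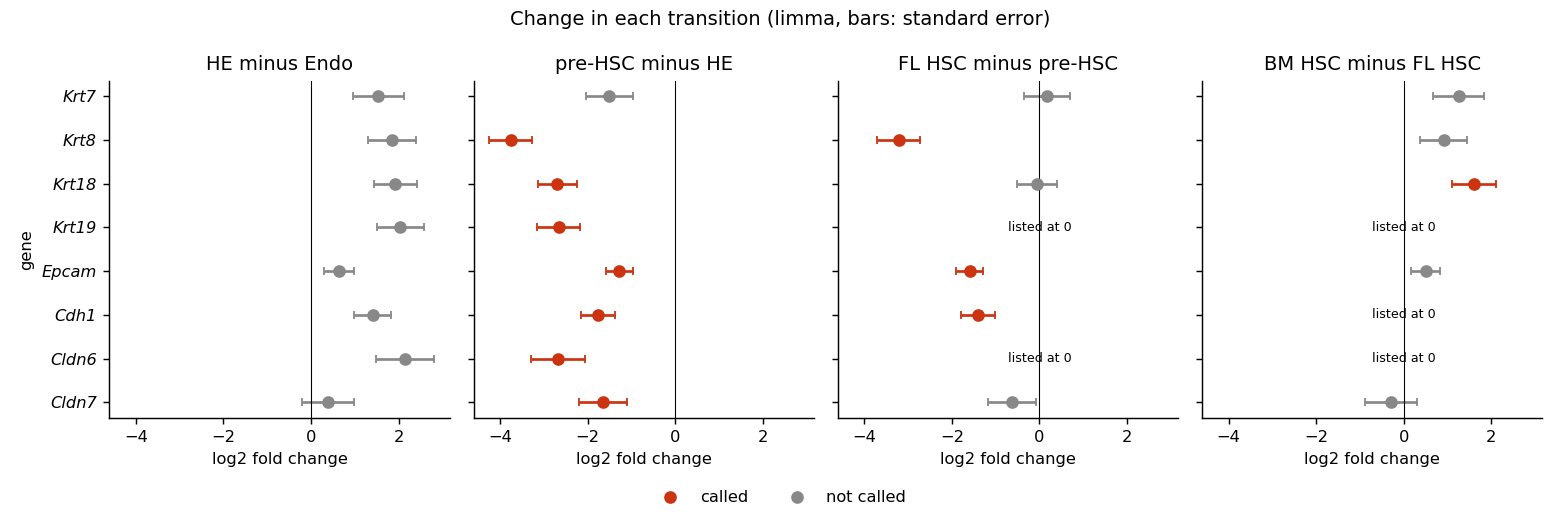
Log2 fold change of each gene (points) with its standard error (bars) in the 4 transitions, from limma on log2(FPKM + 1). Points in red passed the F test and the pairwise thresholds, points in gray did not, and "listed at 0" marks contrasts in which a population has the gene at 0 in every library. The red points are the 7 falls between pre-HSCs and HE, 3 of the 5 falls between FL HSCs and pre-HSCs, and *Krt18* between BM and FL HSCs.

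Between FL HSCs and pre-HSCs 5 of the 8 genes fell, where 25% of the genes tested were called and 13.9% were called as lower. With FPKM scaled to equal totals, which moved the median of all genes by -0.20 (log2), 1126 genes were called as higher and 2329 as lower, against 1637 and 2040 as deposited, and the same number of the 8 genes was called. *Krt8* again fell by 3.21 on the log2 scale (SE 0.49, adjusted p = 0.000489 in limma), and *Epcam* fell by 1.60 (SE 0.31, adjusted p = 0.00197). *Cdh1* had a log2 fold change of -1.41 (SE 0.39, adjusted p = 0.0131 in limma). For *Krt19* and *Cldn6*, listed at 0 in FL HSCs against 3.55 to 8.24 and 1.24 to 7.17 FPKM in pre-HSCs, no fold is given, and limma's adjusted p values were 0.00117 and 0.0144. The remaining genes were not called. *Krt18* differed least, at 14.6 ± 1.03 FPKM in FL HSCs (SD, n = 2) against 15.3 ± 1.23 in pre-HSCs (SD, n = 3), and limma's log2 fold change was -0.06 (SE 0.45, adjusted p = 0.921). *Krt7* was at 0.18 (SE 0.53, adjusted p = 0.805) and *Cldn7* at -0.63 (SE 0.54, adjusted p = 0.363). Without either FL library the calls of *Cdh1* and *Cldn6* ended (adjusted p up to 0.0573 and 0.0624 in limma). Without FL replicate 2, in which it was 11.8 times higher, *Cldn7* was called as lower at -1.65 (adjusted p = 0.0177 in limma), and without FL replicate 1 its change was 0.39. The median was -1.02 over the 6 genes with values above 0 in FL HSCs, against 0.11 over all genes.

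Between BM and FL HSCs *Krt18* was higher in BM and was the one gene called, where 10.1% of the genes tested were called and 5.99% were called as higher. It averaged 46.5 ± 3.48 FPKM in BM HSCs and 14.6 ± 1.03 in FL HSCs (SD, n = 2 each), a ratio of 3.19, and its log2 fold change was 1.61 (SE 0.49, adjusted p = 0.0427 in limma). The BM and FL libraries of *Krt18* were far apart, and its SE is set mostly by the Endo and HE libraries, which share the estimate of the spread. The call was lost in a fit of only these 4 libraries (adjusted p = 0.0566 in limma) and without HE replicate 1, any pre-HSC library, or any FL or BM library (adjusted p = 0.0375, with the F test missed, to 0.140). *Krt7*, *Krt8* and *Epcam* also had both BM libraries above both FL libraries and were not called, with log2 fold changes of 1.25, 0.91 and 0.50 (adjusted p = 0.151, 0.257 and 0.328 in limma). The share of all genes with BM and FL libraries separated in this way was not counted, so this number cannot be judged. *Cldn7* overlapped between the 2 populations, and *Krt19*, *Cldn6* and *Cdh1* were at or near 0 in both.

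The ratio of *Krt8* to *Krt18*, which cancels whatever scales both genes of a library alike, differed less between the libraries of Endo and of HE than either gene did. It was 1.69 and 1.63 in Endo libraries, 1.53 and 1.59 in HE libraries, 0.968, 0.560 and 0.689 in pre-HSC libraries, 0.0305 and 0.0108 in FL libraries and 0.0289 and 0.0334 in BM libraries. In Endo and HE the ratio thus stayed within a narrow range while the genes themselves differed up to 3.62 times between libraries of a population, and in the HSCs *Krt18* was present with *Krt8* at 0.0334 of its level or less. Between the libraries of pre-HSCs and of FL HSCs the ratio differed more than *Krt18* did. In FL and BM HSCs *Krt7* was the more abundant type II keratin, at 5.99 and 16.0 times *Krt8* in FL and 10.2 and 2.58 times in BM libraries. Summed, the type II keratins *Krt7* and *Krt8* stood to the type I keratins *Krt18* and *Krt19* at 1.29 and 1.27 in Endo libraries, 1.12 and 1.21 in HE libraries, 0.826, 0.517 and 0.550 in pre-HSC libraries, 0.213 and 0.183 in FL libraries and 0.324 and 0.120 in BM libraries. The ratio of *Krt19* to *Krt8* was 0.215 and 0.214 in Endo libraries, 0.273 and 0.253 in HE libraries and 0.511, 0.442 and 0.658 in pre-HSC libraries, higher in every pre-HSC library than in any HE library.

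**Figure D4:**
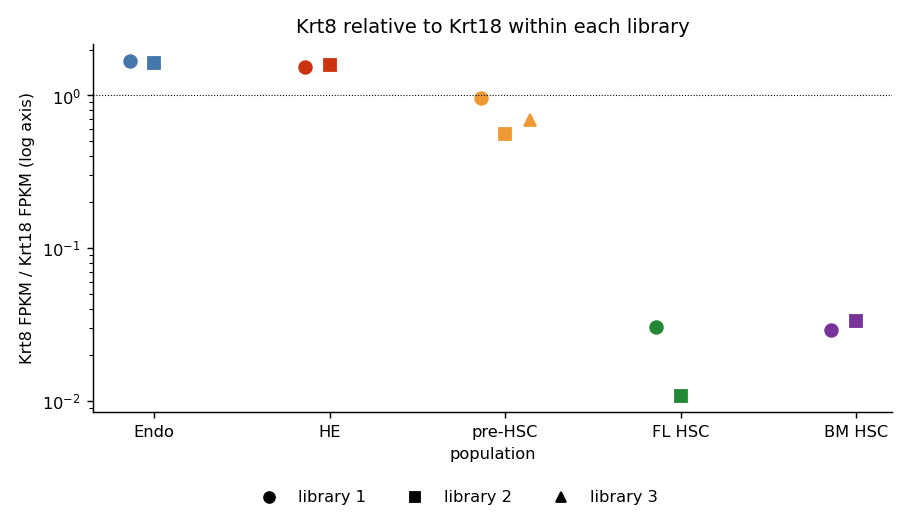
Ratio of *Krt8* to *Krt18* FPKM in each library (symbols, log axis) of the 5 populations, with a dotted line at 1. The Endo and HE libraries lie between 1.53 and 1.69, the pre-HSC libraries between 0.560 and 0.968, and the FL and BM HSC libraries at 0.0334 or less.

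Other genes of epithelial cells were counted from lists that were chosen with earlier results of these data known. Of 9 further keratins, 7 stayed under 1 FPKM in every library, among them *Krt14* and *Krt20*, and *Krt5* and *Krt80* reached at most 2.01 and 2.03 FPKM. Between pre-HSCs and HE, 17 of the 52 tested genes of these lists and the further keratins were called. Of all genes 4.34% were called as lower and 6.98% as higher. In this contrast 4 of 10 tested desmosome genes were called as lower (*Evpl*, *Perp*, *Pkp3* and *Ppl*) and none as higher. The desmosome list's most abundant gene, *Jup*, which encodes plakoglobin and is also used in other junctions, was at 74.9, 89.6 and 76.5 FPKM in pre-HSCs, against 76.6 and 81.1 in HE. Of 12 other tight junction genes, 3 were called as lower (*Cgn*, *Cldn3* and *Cldn4*) and *Ocln* as higher. The claudin *Cldn4* was at 4.21, 2.02 and 4.31 FPKM in pre-HSCs, against 22.9 and 12.8 in HE (log2 fold change -2.06, SE 0.44, adjusted p = 0.00882 in limma, a call that ended without HE replicate 1). Occludin (*Ocln*), a membrane protein of tight junctions, was at 8.12, 6.93 and 5.21 FPKM in pre-HSCs, against 2.53 and 2.03 in HE (log2 fold change 1.23, SE 0.21, adjusted p = 0.00321 in limma).

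Of 11 tested adherens junction and polarity genes, *Cdh3* and *Crb3* were called as lower in pre-HSCs than in HE and none as higher. *Cdh3*, which encodes P-cadherin, was at 6.67, 3.16 and 3.89 FPKM in pre-HSCs, against 25.9 and 16.8 in HE (log2 fold change -2.02, SE 0.37, adjusted p = 0.00465 in limma), and this call too ended without HE replicate 1. Beta-catenin (*Ctnnb1*), which links cadherins of endothelium as well as of epithelium to actin, was the list's most abundant gene, at 463, 514 and 460.3 FPKM in pre-HSCs against 353 and 405 in HE. Of 11 tested genes of the epithelial surface and of epithelial traffic, 4 were called as lower (*Ap1m2*, *Rab25*, *Spint1* and *St14*) and none as higher. Among 6 tested regulators of epithelial genes *Esrp1*, *Esrp2* and *Grhl3* were called as lower. The transcription factor gene *Grhl3* was at 1.23, 0.426 and 0.754 FPKM in pre-HSCs, against 9.73 and 6.09 in HE (log2 fold change -2.30, SE 0.34, adjusted p = 0.00161 in limma). The median log2 fold changes were -0.58 over the desmosome genes, -0.40 over the other tight junction genes, 0.18 over the adherens junction and polarity genes, -1.07 over the surface and traffic genes and -0.87 over the regulators, against 0.09 over all genes. In the contrast of HE with Endo none of the 52 genes in these lists and among the further keratins was called, where 0.129% of all genes were.

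Repressors of epithelial genes moved in both directions. Of 9 tested genes of this list, which also holds mesenchymal genes, *Zeb2* was called as higher in pre-HSCs than in HE and *Snai1*, *Twist1* and *Twist2* as lower. Of all genes 6.98% were called as higher and 4.34% as lower. *Zeb2*, a repressor that binds E-boxes, was at 16.0, 12.2 and 15.9 FPKM in pre-HSCs, against 5.36 and 6.42 in HE (log2 fold change 1.18, SE 0.17, adjusted p = 0.00157 in limma). *Snai1*, another E-box repressor, was at 11.3, 13.2 and 9.65 FPKM in pre-HSCs, against 23.5 and 24.6 in HE (log2 fold change -1.03, SE 0.20, adjusted p = 0.00581 in limma, lost without HE replicate 2 or pre-HSC replicate 3). Between FL HSCs and pre-HSCs 7 of the 9 were called as lower, where 13.9% of all genes were. These were *Snai1*, *Snai2*, *Twist1* and *Twist2* and the mesenchymal genes *Cdh2*, *Fn1* and *Vim*, while *Zeb1* and *Zeb2* were not called.

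In the later transitions calls in these lists went in both directions. Between FL HSCs and pre-HSCs 15 of the 52 genes were called, near the 25% of all genes (13.9% as lower and 11.1% as higher). Of these lists 2 of 10 desmosome genes, 4 of 12 other tight junction genes, 5 of 11 adherens junction and polarity genes and 1 of 6 regulators were called as lower, and 1 each of the desmosome, other tight junction and surface lists as higher. The last was *Spint2*, a protease inhibitor gene of epithelial surfaces, at 98.6 and 102 FPKM in FL HSCs, against 25.0, 22.0 and 22.1 in pre-HSCs (log2 fold change 2.08, SE 0.32, adjusted p = 0.000546 in limma). Between BM and FL HSCs 8 of the 52 were called, where 10.1% of all genes were. These were *Pkp3* of the desmosome list, *Cldn12* and *F11r* of the tight junction list, *Crb3* of the polarity list and *Cdcp1* and *St14* of the surface list as higher, and *Ocln* and *Sdc1* as lower. *St14*, which encodes the membrane protease matriptase, was at 11.5 and 11.3 FPKM in BM HSCs, against 1.87 and 1.94 in FL HSCs (log2 fold change 2.09, SE 0.30, adjusted p = 0.00148 in limma).

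Markers of some other cell types moved with the 8 genes, and those of others did not. Mesothelium, the epithelium that lines the body cavity next to the arteries, was followed with 8 genes, which summed to 6.84 and 24.9 FPKM in Endo libraries, 59.3 and 42.1 in HE libraries, 16.2, 9.03 and 12.7 in pre-HSC libraries, 4.76 and 5.92 in FL libraries and 6.29 and 6.65 in BM libraries. In the FL and BM libraries the sum was almost only *Lrrn4*, at 4.76 and 5.92 FPKM in FL and 6.26 and 6.61 in BM. *Lrrn4* was also called as higher in FL HSCs than in pre-HSCs. The sums of the list had the same order of libraries within Endo, HE and pre-HSCs as the keratin and junction genes. Its tested genes did not all share this order. *Upk3b*, *Upk1b* and *Lrrn4* were higher in HE replicate 1 than in HE replicate 2, and *Wt1*, *Bnc1* and *Gpm6a* were lower. In pre-HSCs *Upk3b* alone of the tested genes had the order replicate 1, 3, 2 from high to low. Of its 6 tested genes 3 were called as lower in pre-HSCs than in HE (*Bnc1*, *Lrrn4* and *Upk3b*) and *Gpm6a* as higher. Of all genes 4.34% were called as lower and 6.98% as higher. None of the 6 was called between HE and Endo, and *Msln* and *Muc16* of the list stayed under 1 FPKM in every library. *Upk3b* was at 3.88, 1.21 and 2.42 FPKM in pre-HSCs, against 38.2 and 23.3 in HE (log2 fold change -3.21, SE 0.49, adjusted p = 0.00192 in limma). *Wt1*, a transcription factor gene of mesothelium, was at 3.91, 2.16 and 2.05 FPKM in pre-HSCs, against 3.96 and 5.08 in HE. The part of mesothelium in the levels of the 8 genes was not tested.

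The 10 mural and mesenchymal markers summed to 207 and 486 FPKM in Endo libraries, 1196 and 1281 in HE libraries, 524, 242 and 321 in pre-HSCs and at most 10.7 in the HSCs. These sums were thus also highest in HE, higher in Endo replicate 2 than in replicate 1, and in the order replicate 1, 3, 2 within pre-HSCs. Unlike for the 8 genes, the sum of HE replicate 1 was slightly below that of HE replicate 2. The order of the Endo sums came mostly from the collagen genes *Col1a1*, *Col3a1* and *Col1a2*. Of the list, *Acta2* and *Tagln* alone were lower in Endo replicate 2 than in replicate 1. Of these 10 genes *Acta2* and *Tagln* were called as higher in HE than in Endo and 6 as lower in pre-HSCs than in HE. *Acta2*, which encodes smooth muscle actin, was at 303 and 284 FPKM in HE, against 67.8 and 61.1 in Endo (log2 fold change 2.17, SE 0.22, adjusted p = 0.0092 in limma, lost without Endo replicate 1 or either HE library). Germ cell markers were highest in Endo, with sums of 236 and 172 FPKM in Endo libraries, 41.3 and 36.4 in HE libraries and 4.41, 4.40 and 9.14 in pre-HSC libraries, and with Endo replicate 1 above replicate 2. Of 10 tested, 5 were called as lower in HE than in Endo, where 0.0748% of all genes were. Likewise 5 were called as lower in pre-HSCs than in HE, where 4.34% of all genes were. Of the trophoblast list only *Hand1*, which is also made in mesoderm, was tested. It was at 7.68, 3.26 and 4.58 FPKM in pre-HSCs, against 58.8 and 40.5 in HE (log2 fold change -3.08, SE 0.52, adjusted p = 0.00311 in limma). Of the nephric duct and mesonephros genes 3 of 9 were tested and none was called in any transition, and of the gut endoderm and hepatocyte genes none was called between HE and Endo or between pre-HSCs and HE. Nephric sums were 6.41 and 7.89 FPKM in Endo libraries, 16.4 and 11.9 in HE libraries and 8.15, 7.15 and 7.73 in pre-HSC libraries. Within these populations they had the same order of libraries as the 8 genes, but of the 3 tested genes *Gata3* and *Emx2* did not. The trophoblast sums, made up mostly of *Hand1* in HE (60.3 and 41.8 FPKM), had this order as well. The part of these cell types in the levels of the 8 genes was not tested. The endothelial markers summed to between 1632 and 2405 FPKM in the 7 libraries of Endo, HE and pre-HSCs and were lowest among these in HE.

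Erythroid markers, 7 genes with the embryonic globin gene *Hbb-y* as the most abundant in Endo, HE and pre-HSCs, were also lower in pre-HSCs than in HE. They summed to 3917 and 4199 FPKM in Endo libraries, 4443 and 5726 in HE libraries, 558, 753 and 684 in pre-HSC libraries, 394 and 195 in FL libraries and 41.5 and 64.1 in BM libraries. Of the 7, 5 were called as lower in pre-HSCs than in HE (*Alas2*, *Gata1*, *Hba-a1*, *Hbb-y* and *Klf1*), where 4.34% of all genes were. The median log2 fold change was -2.01 over the list, and none was called between HE and Endo. Their sums were higher in HE replicate 2 than in HE replicate 1, unlike those of the keratin and junction genes. The blood markers went the other way, with 4 of 7 called as higher in pre-HSCs than in HE (*Hlf*, *Myb*, *Ptprc* and *Spn*), where 6.98% of all genes were. Their sums were 52.9, 68.6 and 55.3 FPKM in pre-HSCs, against 17.7 and 12.8 in HE. The part of these cell types in the levels of the keratin and junction genes was not tested.

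**Figure D5:**
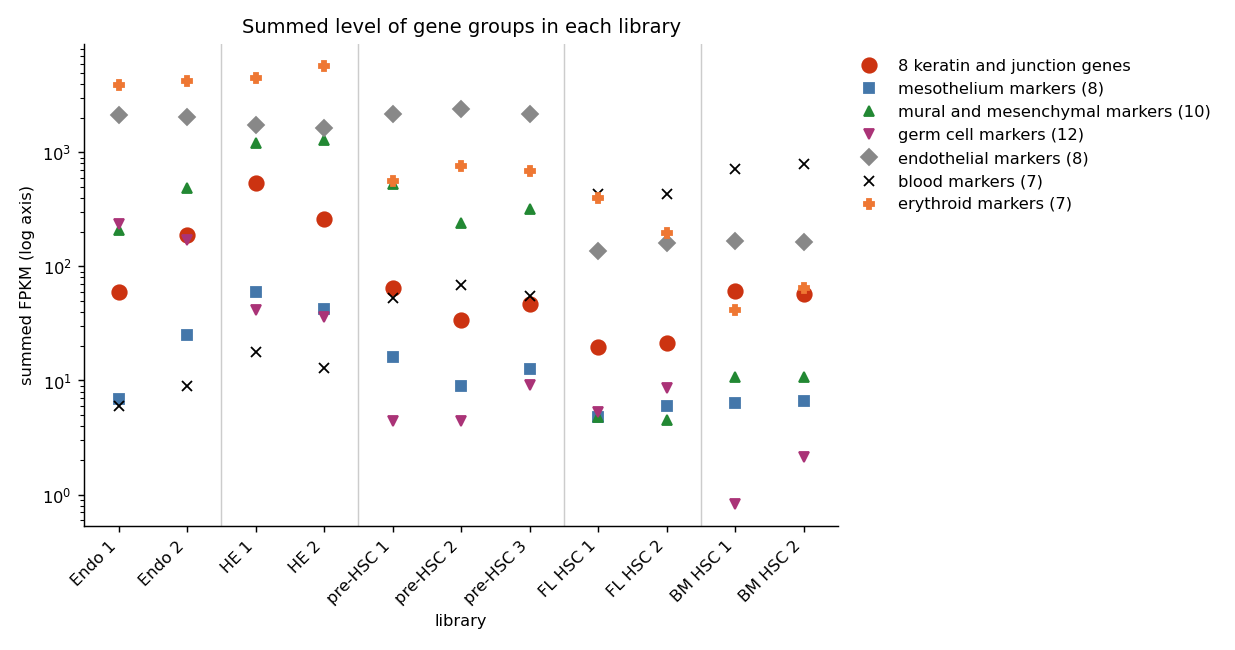
Summed FPKM (log axis) of the 8 keratin and junction genes and of marker lists of other cell types (number of genes in parentheses) in each of the 11 libraries, with gray lines between populations. The keratin and junction genes are highest in the HE libraries, at 536 and 262, where the mesothelium, the mural and mesenchymal and the erythroid markers are also highest.

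Over the 11 libraries the 8 genes fell into groups by the likeness of their log2(FPKM + 1) values. *Krt8*, *Krt19*, *Epcam*, *Cdh1* and *Cldn6* had Pearson correlations of 0.965 to 0.998 with each other, and *Cldn7* of 0.807 to 0.846 with these 5. *Krt18* correlated at 0.597 with *Krt8* and 0.788 with *Krt7*, and *Krt7* at 0.151 to 0.284 with the other 6. These correlations describe 11 libraries that share 5 populations and, within them, the differences between libraries given above. Among genes that reached 5 FPKM in at least 1 library, those most like the mean pattern of the 8 were *Palm3* (r = 0.993), *Grb7* (r = 0.992), *Upk3b* (r = 0.978), *Grhl3* (r = 0.977), *Cbln1* (r = 0.976), *Upk1a* (r = 0.975), *Kcnk1* (r = 0.974), *Jph2* (r = 0.970), *Rab25* (r = 0.968) and *Crb2* (r = 0.968). *Palm3*, the first of them, was at 1.62 and 3.9996 FPKM in Endo libraries, 11.4 and 6.60 in HE libraries and 2.22, 0.745 and 2.03 in pre-HSC libraries, and it too was higher in Endo replicate 2 and in HE replicate 1. Singly, *Krt8* was most like *Hoxc4* (r = 0.995), *Krt19* like *Cdh3* (r = 0.996), *Cdh1* like *Srpx* (r = 0.993), *Cldn6* like *Creb3l1* (r = 0.989), *Epcam* like *Fam19a5* (r = 0.988), *Cldn7* like *Gm10638* (r = 0.948) and *Krt7* like *Evc2* (r = 0.886). *Hand1* was among the 3 genes most like each of *Krt8*, *Krt19*, *Cdh1* and *Cldn6*.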

How the data were processed

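Poly(A) RNA of cells sorted into 5 populations was sequenced from both fragment ends on an Illumina HiSeq. By the paper and the submitters' processing notes, the authors aligned reads with TopHat to mm9, kept those that mapped uniquely and took gene models from Ensembl. The notes also list Cufflinks, featureCounts and Subread. Neither tool versions nor the tool behind the FPKM are named in the sources used here. What the authors deposited is FPKM per gene and library, without counts or columns of comparisons. FPKM rest on the library total and the transcript length, so a gene's value also moves with what the rest of the library expresses. Steps of whole reads were sought in the low values, but a value was shared (within 0.1%) by no more than 6 single-exon genes in any library, and depth stays unknown.

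Symbols and positions (counted from 1) came from GENCODE M1 (NCBIM37) for 37038 of 37820 gene IDs (97.9%). Genes reaching 1 FPKM in 2 or more libraries (14708) were fitted as log2(FPKM + 1) over all 11 libraries using limma 3.58.1 (lmFit, then eBayes with trend) under R 4.3.3, and p-values were adjusted over these genes by Benjamini-Hochberg. Populations with 2 libraries take most of their spread from the rest. The fit was tested on simulated data. Upstream sequences came from RefSeq. Python 3.11.15 with pandas 2.3.3, numpy 2.4.6 and matplotlib 3.10.9 served for tables and plots.

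The 8 genes and the lists were chosen with earlier results of these data known. Named were the 8 genes, up to 4 genes of each list by mean FPKM, the 10 genes most like the mean pattern of the 8 (mean of the standardized log2 values) and the 3 most like each, while other genes were chosen after their values were seen. A few genes were taken out of the lists and of the likeness results and are not reported here. Alternatives were a pseudocount of 0.1, fitting every gene without a filter, quantile normalization, scaling FPKM to equal totals, leaving out the F test, a replicate block, fitting only the populations compared, and leaving out each library in turn.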

Additional observations from a re-analysis of the deposited data

How the results depend on the processing

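The settings were changed one at a time, and the cause of a change was not tested except where stated. Between HE and Endo none of the 8 genes was called under any other setting, and 0 to 1 when single libraries were left out. Between pre-HSCs and HE it was 7, with 5 to 7 under the other settings and 1 to 7 when single libraries were left out, and between FL HSCs and pre-HSCs it was 5, with 4 to 5 and 3 to 5. Between BM and FL HSCs 1 was called, against 2 with a pseudocount of 0.1 (*Krt8* and *Krt18*), 0 without a filter, 0 under the replicate block, 0 in a fit of only these populations, and 0 to 1 when single libraries were left out. Over all genes, HE against Endo gave 19 calls, but 10 with a pseudocount of 0.1, 31 without a filter, 11 under the replicate block, 0 in a fit of only these populations (which has fewer libraries), and 1 to 25 when single libraries were left out. Pre-HSCs against HE gave 1665 calls (983 to 1772 when single libraries were left out), and BM against FL HSCs gave 1480, with 0 in a fit of only these populations and 981 to 2031 when single libraries were left out.

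Of 20 same-numbered pairs of libraries 8 had a correlation of their deviations over 0.1, within -0.155 to 0.156. In populations of 2 libraries the deviations mirror each other, so pairs repeat a value (0.115 for both pairs of Endo and HE). Whether replicate numbers pair the libraries cannot be told from these correlations. The replicate block ended the *Cldn7* call between pre-HSCs and HE (adjusted p = 0.0971 in limma) and that of *Krt18* between BM and FL HSCs (adjusted p = 0.0695). Without a filter, which tests more genes, both calls and that of *Krt18* between pre-HSCs and HE ended as well.

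Some genes that were not called changed sign when single libraries were left out. *Cldn7* ranged over -0.12 to 0.91 between HE and Endo (negative without HE replicate 1), -1.65 to 0.39 between FL HSCs and pre-HSCs (positive without FL replicate 1), and -1.32 to 0.72 between BM and FL HSCs (positive without FL replicate 2 and, at 0.071, without BM replicate 2). Between FL HSCs and pre-HSCs *Krt7* ranged over -0.081 to 0.57 (negative without pre-HSC replicate 2) and *Krt18* over -0.13 to 0.0059 (positive without FL replicate 2). The median residual SD of the 8 genes lay between 0.48 and 0.71 when single libraries were left out. Depth is unknown, so low values such as those of *Cdh1* in FL HSCs carry no counting error here.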
